A study of Neurospora crassa with 6 samples.

Results

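The genes described here are the ribosome biogenesis and nucleolar genes of the filamentous fungus Neurospora crassa. They were chosen by the text of their annotated product, which had to name ribosome biogenesis or assembly, rRNA, the nucleolus, a nop protein or U3, and to name no helicase, ribosomal protein, polymerase or splicing. This rule found 51 of the 9691 genes in the deposited tables and uses no measured value. Poly(A) RNA of 6 wild-type cultures was sequenced, 1 library for each group, to compare the response to the protein kinase inhibitor staurosporine between media that differ in calcium. Conidia, the asexual spores, were grown for 6 h and then for 1 h more with 20 µM staurosporine or with DMSO, the solvent. Both treatments were given in standard minimal medium, in minimal medium labelled 0 Ca2+ and in minimal medium with 20 mM CaCl2. All 6 groups are the same wild type at the same stage, and no group has a second library, so a difference within 1 medium has no replicate error and no test.

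Ribosomes are built in the nucleolus. There RNA polymerase I makes a long precursor RNA that is cut, methylated and pseudouridylated while ribosomal proteins and RNA polymerase III's small rRNA are added. The steps are best known from the yeast Saccharomyces cerevisiae, from which the roles given below are taken. Small nucleolar RNPs (snoRNPs) of the box C/D kind guide methylation and those of the H/ACA kind guide pseudouridylation. The U3 snoRNP and the small subunit processome cut out the RNA of the small subunit, while another set of nucleolar proteins matures the large subunit and sees it out of the nucleus. In S. cerevisiae these genes are known to be transcribed as a regulon and to be turned down together when growth stops.

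Levels are the authors' FPKM, fragments mapped to a gene per length of its transcript and per size of the library, and therefore comparable between genes and relative to the rest of the same library. The read depth is unknown. In bulk cultures, fewer living cells and less RNA per cell cannot be told apart in such values. Sums of FPKM lay between 940589.8 and 1001098 in the DMSO libraries and at 500315, 696047 and 666121 in the staurosporine libraries of standard, 0 Ca2+ and 20 mM CaCl2 medium. Counts and medians of the main comparisons are therefore also given after scaling every library to the same sum, here called equal sums. Ribosomal protein genes held 37.5 to 41.0% of the sum in the DMSO libraries, 16.5% in the standard staurosporine library, 34.1% in the 0 Ca2+ one and 32.4% in the 20 mM CaCl2 one. Of 8 conidia marker genes 7 were matched, and their summed level was 10.5 to 78.6 FPKM with DMSO and 59.99 to 100.8 with staurosporine. They did not move together: con-6, con-8, con-10, con-13 and fl were highest in the 0 Ca2+ staurosporine library (con-6 at 42.2 and con-10 at 35.1 FPKM), acon-3 in the standard one, and eas, the most abundant, in the 20 mM CaCl2 DMSO library at 69.7 FPKM, with 7.95 in the 0 Ca2+ staurosporine library. Con-13 was listed at 0 in 3 libraries. The part of spores in the results below was not tested.

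The 51 genes stood at a different level in each medium with staurosporine, lowest in 0 Ca2+ and highest in 20 mM CaCl2, and at similar levels with DMSO. Their median was 43.1, 34.4 and 34.3 FPKM in the DMSO libraries of standard, 0 Ca2+ and 20 mM CaCl2 medium. With staurosporine the median was 12.4 FPKM in standard medium, 1.77 FPKM in 0 Ca2+ medium and 48.6 FPKM in 20 mM CaCl2 medium. The genes thus held 0.255 to 0.298% of the FPKM sum in the DMSO libraries, and 0.179, 0.0364 and 0.516% in the staurosporine libraries in the same order of media. No gene was under 1 FPKM in any library but the 0 Ca2+ staurosporine library, where 15 were. All 51 passed the filter on low values, a mean of 1 FPKM or more in the libraries set against each other, in every comparison.

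**Figure D1:**
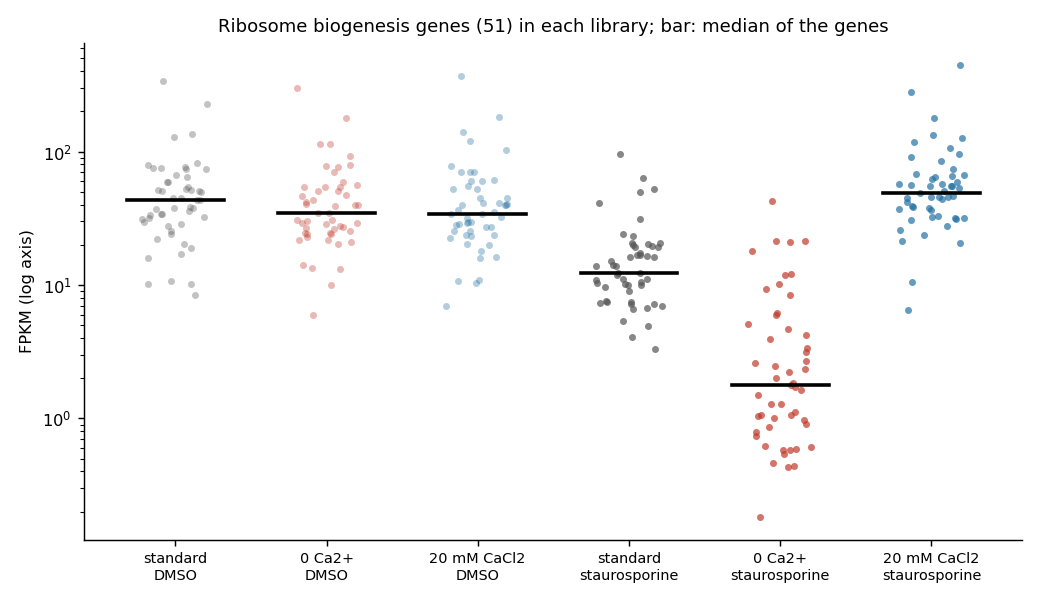
FPKM (log axis) of each of the 51 ribosome biogenesis and nucleolar genes in each of the 6 libraries, with a bar at the median of the genes. The medians are 43.1, 34.4 and 34.3 FPKM with DMSO, and 12.4, 1.77 and 48.6 FPKM with staurosporine in standard, 0 Ca2+ and 20 mM CaCl2 medium.

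Without the drug these genes differed little between media, though most were slightly lower in 0 Ca2+ and in 20 mM CaCl2 than in standard medium. Ratios are given as log2 of the ratio of FPKM + 1, which understates the change of low genes, and a gene is counted as higher or lower where the absolute log2 ratio is at least 1, a factor of 2. Between the DMSO libraries of 0 Ca2+ and standard medium 0 of 51 genes passed that size in either direction, against 5.33% of all genes. The median log2 ratio was -0.16 (range -0.76 to 0.37), where all genes had 0.12. Below 0 were 41 of 51, against 2537 of all 7079 genes. Between the DMSO libraries of 20 mM CaCl2 and standard medium 0 of 51 again passed that size, against 2.92% of all genes. The median was -0.17 (range -0.67 to 0.48), where all genes had 0.07. Below 0 were 38 of 51, against 2833 of all 7112 genes. Over the 3 DMSO libraries the distance from a gene's lowest to its highest level had a median of 0.35 on the log2 scale and was at most 0.76. That widest distance belonged to NCU07956 (PNO1, which binds the precursor of the small subunit rRNA), at 52.5, 30.5 and 36.6 FPKM. The gene at the other end of the 0 Ca2+ comparison was NCU00501 (nucleolar complex protein 4), at 10.1 FPKM in standard and 13.3 in 0 Ca2+ medium. In 20 mM CaCl2 medium the ends were NCU08121 (a ribosome biogenesis protein with no step named), with 64.1 FPKM in standard and 39.9 in 20 mM CaCl2, and NCU09528 (nucleolar protein 16), with 37.6 and 52.7. The authors' deposited table calls none of the 51 as changed between DMSO media (0 higher and 0 lower in both comparisons). Calls were few among all 9691 genes as well: 143 higher and 138 lower in 0 Ca2+, and 92 and 37 in 20 mM CaCl2 medium.

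In standard medium staurosporine came with lower levels of nearly the whole set. At least 2 times lower were 46 of 51 genes, against 14.9% of all genes tested, 0 were higher and all 51 ratios lay below 0. The median log2 ratio was -1.57 (quartiles -1.80 and -1.28), where all genes had a median of 0.11. With libraries scaled to equal sums, which moved ratios by a median of 0.89, the genes' median was -0.70. Below 0 remained 47 of 51, and 10 were then at least 2 times lower. Of all 7167 genes 1305 were then below 0 and 366 at least 2 times lower, with a median of 0.94. The authors' deposited table calls 45 of them lower, against 10.3% of all genes, and 0 higher in this medium.

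In 0 Ca2+ medium the ratios were lower still. At least 2 times lower were 51 of 51 genes, against 20.9% of all genes, and the log2 ratios had a median of -3.74 (quartiles -4.06 and -2.58) beside -0.09 for all genes. A ratio of -2 or lower was reached by 46 genes (all genes: 7.34%), -3 or lower by 34 (all genes: 2.89%) and -4 or lower by 16 (all genes: 1.01%), whereas in standard medium 8 genes reached -2 (all genes: 3.8%). The drug ratio was lower in 0 Ca2+ than in standard medium for 49 of 51 genes (all genes: 56.4%). Scaling to equal sums left 49 of 51 at least 2 times lower and the median at -3.45. Of all genes 1040 of 7531 were then at least 2 times lower, with a median of 0.32. The authors' deposited table calls 50 of the genes lower, against 16.1% of all genes, and 0 higher.

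With 20 mM CaCl2 the set lay on the other side. Above 0 were 44 of 51 ratios, against 39.6% of all genes. The median log2 ratio was 0.43 (quartiles 0.20 and 0.68), where all genes had -0.14. Higher by at least 2 times were 5 genes (all genes: 2.62%) and lower 0 (all genes: 6.16%). Under equal sums 50 of 51 were above 0, the median was 1.01, and 26 genes were higher by a factor of 2 or more. That scaling also raised the other genes: 5498 of all 7204 were above 0 and 925 higher by that factor, with a median of 0.39. The 5 genes are also those that the authors' deposited table calls higher in this medium (all genes: 1.5%), with q values between 0.00501 and 0.0269 that rest on single libraries.

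Each staurosporine library was also set against the range of the 3 DMSO libraries; in 0 Ca2+ medium alone the count was the same under either scaling. In standard medium with staurosporine 51 of 51 genes lay below all 3 DMSO libraries (all genes: 38.4%), which became 40 below and 3 above with equal sums. In 0 Ca2+ medium it was 51 of 51 (all genes: 45.0%), also with equal sums. In 20 mM CaCl2 medium 33 lay above the 3 DMSO libraries (all genes: 26.8%), 15 within their range and 3 below. With equal sums 50 lay above and 0 below. The share of all genes outside the DMSO range was not computed with equal sums.

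The order of the staurosporine libraries was nearly uniform. In 50 of 51 genes the level was lowest in 0 Ca2+, intermediate in standard and highest in 20 mM CaCl2 medium, an order held by 23.1% of all genes. Below 0 in standard and 0 Ca2+ medium and above 0 in 20 mM CaCl2 medium were 44 genes, against 9.66% of all genes. The other 7 were below 0 in all 3 media. Compared directly, 45 of 51 genes were at least 2 times lower in the 0 Ca2+ than in the standard staurosporine library (all genes: 17.9%), with a median log2 ratio of -2.26. In the 20 mM CaCl2 staurosporine library 49 were higher than in the standard one (all genes: 12.1%), with a median of 1.90, and 50 were higher than in the 0 Ca2+ one (all genes: 20.5%), with a median of 4.26. With equal sums the counts were 48, 42 and 50, and over all genes 2359 of 7549, 550 of 7219 and 1709 of 7598. These 3 comparisons share libraries with each other and with those above, so they are not separate evidence.

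**Figure D2:**
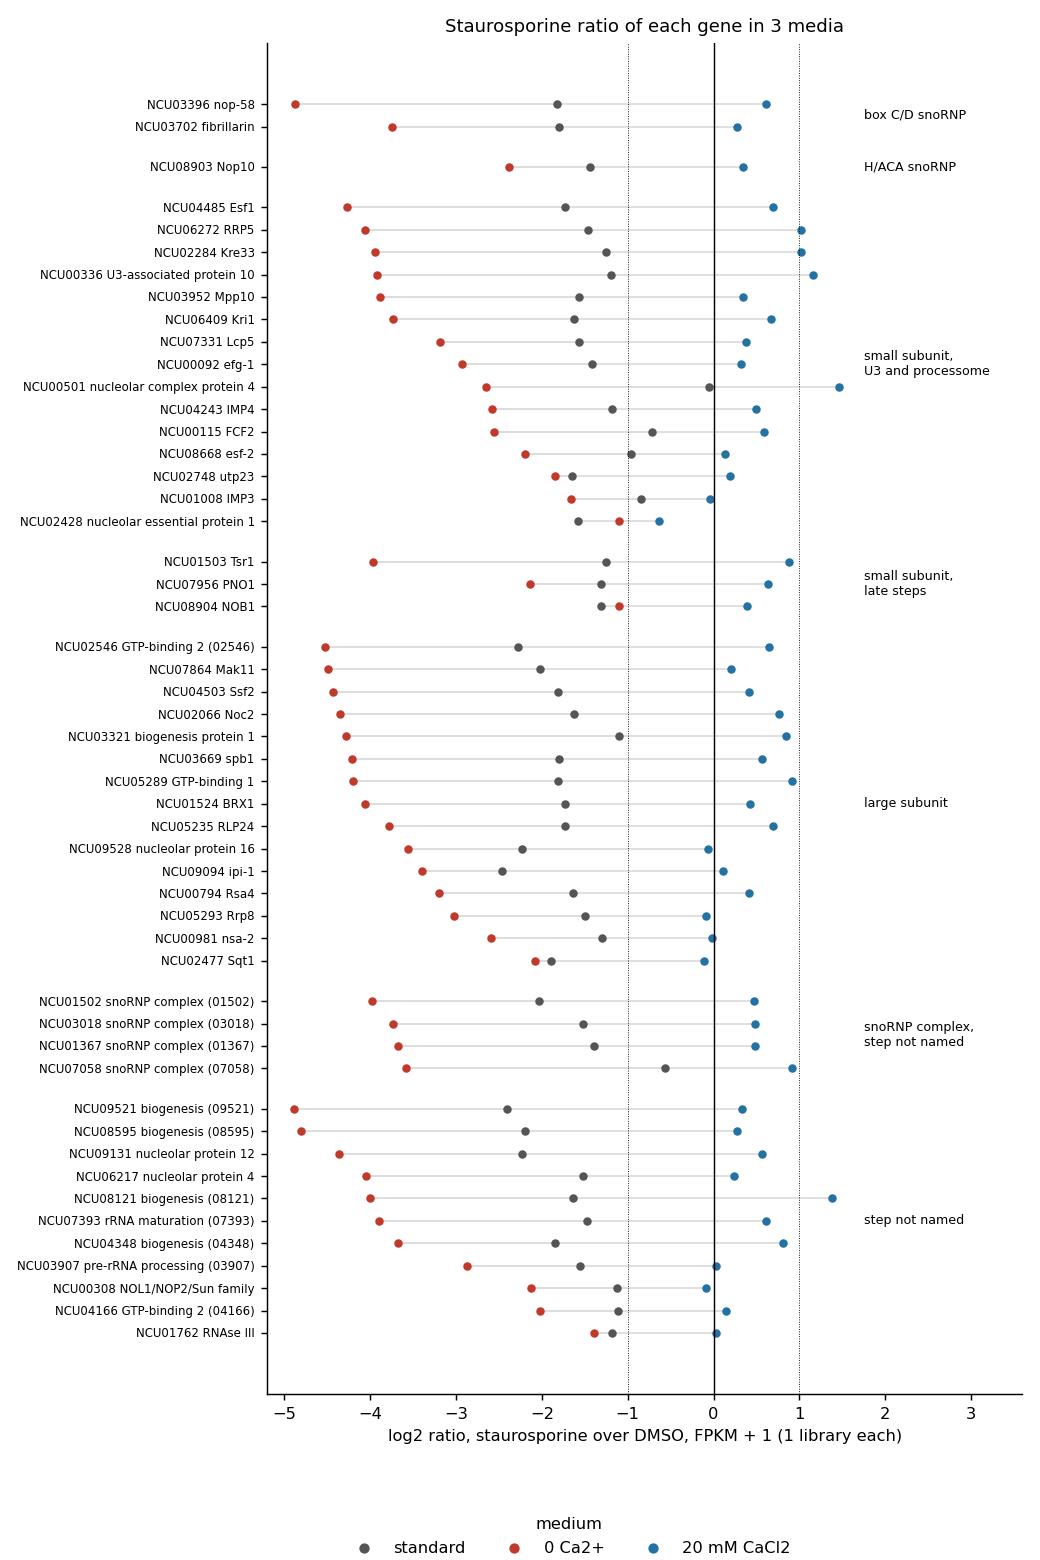
log2 ratio of staurosporine over DMSO (FPKM + 1, 1 library each) for every one of the 51 genes in standard (grey), 0 Ca2+ (red) and 20 mM CaCl2 (blue) medium, grouped by role and sorted by the 0 Ca2+ value; dotted lines mark a factor of 2. The red points lie between -4.89 and -1.10, the grey ones between -2.46 and -0.05 and the blue ones between -0.64 and 1.46.

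Whether the mean of the 3 within-medium drug ratios differed from 0 was tested with limma's moderated test, with Benjamini-Hochberg adjustment over 7415 genes. None of the 51 genes passed (0 at an adjusted p below 0.05), against 0.162% of all genes. At an unadjusted p below 0.05 there were 11 of 51 genes, and 1047 of 7415 overall. In an unpaired limma fit, with medium left out, 0 passed too. The spread in this test includes the opposite side taken in 20 mM CaCl2 medium. Without that medium's pair, 39 of the 51 genes passed limma's test, all lower, against 7.23% of all genes. Without the standard pair or without the 0 Ca2+ pair it was 0. The fit that gave 39 rests on the standard and 0 Ca2+ pairs alone, neither with a replicate. It leaves out the medium whose ratios lay on the other side. NCU02428 (nucleolar essential protein 1) had the lowest p of the set over the 3 media, with a mean log2 ratio of -1.11 (SE 0.35, limma adjusted p = 0.292), followed by NCU09528 at -1.95 (SE 0.65, adjusted p = 0.293) and NCU09094 at -1.92 (SE 0.66, adjusted p = 0.308).

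The most abundant members were the core proteins of the modification snoRNPs. Fibrillarin (NCU03702), the methyltransferase of box C/D snoRNPs, stood at 336, 301 and 367 FPKM in the DMSO libraries of standard, 0 Ca2+ and 20 mM CaCl2 medium. With staurosporine it was at 96.1, 21.4 and 443 FPKM in the same order, log2 ratios of -1.80, -3.75 and 0.27. Its level with the drug was below every DMSO library in standard and 0 Ca2+ medium and above every one in 20 mM CaCl2 medium. Nop-58 (NCU03396), which holds fibrillarin in the box C/D particle, was at 227, 178 and 183 FPKM with DMSO and at 63.2, 5.11 and 280.4 FPKM with staurosporine. In 0 Ca2+ medium its log2 ratio of -4.87 was lower than fibrillarin's, although both proteins belong to 1 particle. NCU08903 (Nop10), a small core protein of H/ACA snoRNPs, was at 136, 114 and 139.9 FPKM with DMSO and at 49.5, 21.0 and 178 FPKM with the drug. Its 0 Ca2+ ratio of -2.38 was the mildest of the 3 core proteins, and it is also the shortest of their genes.

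Genes of the small subunit processome and the U3 snoRNP had the widest range of any role in standard and 20 mM CaCl2 medium. The 15 genes had a median of -1.42 in standard medium, -2.93 in 0 Ca2+ and 0.50 with 20 mM CaCl2, and 4 of the 5 genes higher by at least 2 times in 20 mM CaCl2 medium are among them. Nucleolar complex protein 4 (NCU00501), which in yeast works in small subunit assembly, was at 10.1, 13.3 and 10.8 FPKM with DMSO and at 9.74, 1.29 and 31.5 FPKM with staurosporine. Its ratio was the highest of the set in standard medium (-0.05, and 0.80 with equal sums) and in 20 mM CaCl2 medium (1.46, and 2.04 with equal sums). U3 small nucleolar RNA-associated protein 10 (NCU00336), a large scaffold of the processome, was at 17.2, 21.1 and 15.9 FPKM with DMSO and at 6.92, 0.460 and 36.8 FPKM with the drug. Its ratio of 1.16 in 20 mM CaCl2 medium stood beside -3.92 in 0 Ca2+ medium. The other 2 of these 4 are NCU02284 (Kre33, an RNA acetyltransferase) at 1.02 and NCU06272 (RRP5, which serves both subunits) at 1.02, with -3.95 and -4.06 in 0 Ca2+ medium.

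Proteins that act together at the U3 RNA differed in their ratios. Mpp10 (NCU03952) was at 28.8, 21.8 and 20.1 FPKM with DMSO and at 9.02, 0.540 and 25.9 FPKM with staurosporine. IMP4 (NCU04243), its partner at the U3 RNA, was at 38.0, 30.2 and 34.2 FPKM and at 16.2, 4.24 and 48.6 FPKM. IMP3 (NCU01008), the other partner, was at 74.8, 69.9 and 70.3 FPKM and at 41.1, 21.5 and 68.1 FPKM. In 0 Ca2+ medium their log2 ratios were therefore -3.89, -2.58 and -1.66. Lcp5 (NCU07331), another U3 protein, lay between Mpp10 and IMP4 at -3.19, with 30.7 FPKM in the DMSO and 2.46 in the staurosporine library. FCF2 (NCU00115), needed for early cuts, was at -2.56, with 54.3 and 8.38 FPKM. In standard medium FCF2 had a log2 ratio of -0.71, and 0.18 with equal sums. Of the other processome genes Esf1 (NCU04485) had the lowest 0 Ca2+ ratio, -4.27, with 29.4 FPKM with DMSO and 0.575 with the drug. Utp23 (NCU02748) was at 39.2 and 10.2 FPKM in these libraries, a ratio of -1.85. Kri1 (NCU06409), efg-1 (NCU00092) and esf-2 (NCU08668) lay between them, at -3.74, -2.93 and -2.20.

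NCU02428, nucleolar essential protein 1, was the exception to the order of media. In yeast this protein is a methyltransferase of the small subunit rRNA. It stood at 74.0, 93.3 and 103 FPKM with DMSO and at 24.1, 42.9 and 66.0 FPKM with staurosporine. Its level in 0 Ca2+ medium with the drug was above that in standard medium, as in no other of the 51 genes, and its ratio in 20 mM CaCl2 medium was the lowest of the set, at -0.64. As deposited, all 3 staurosporine levels lay below all 3 DMSO levels. With equal sums its 20 mM CaCl2 ratio was -0.06, and that level was no longer below the DMSO range.

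The 3 genes of late small subunit steps lay far apart in 0 Ca2+ medium. NOB1 (NCU08904), the endonuclease of the final cut, was at 43.1, 26.6 and 29.1 FPKM with DMSO and at 16.8, 11.8 and 38.4 FPKM with the drug, with a ratio of -1.10 in 0 Ca2+ medium. PNO1 (NCU07956), which works with NOB1, was at 20.5, 6.13 and 57.1 FPKM with the drug, and its ratio there was -2.14. Tsr1 (NCU01503), which binds the late small subunit precursor, had -3.97, with 27.2 and 0.794 FPKM.

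The 15 large subunit genes were all at least 2 times lower in standard and in 0 Ca2+ medium, with medians of -1.79 and -4.06, and none was 2 times higher in 20 mM CaCl2 medium, where the median was 0.42 and 11 of 15 lay above 0. Nucleolar GTP-binding protein 2 (NCU02546), a GTPase of large subunit export, was at 77.0, 56.5 and 61.1 FPKM with DMSO and at 15.1, 1.5 and 96.3 FPKM with staurosporine. Eukaryotic ribosome biogenesis protein 1 (NCU03321), of the large subunit factors, was at 31.3, 40.1 and 35.5 FPKM and at 14.0, 1.11 and 64.3 FPKM. Those 2 genes lay apart in standard medium, at -2.28 and -1.10, and closer in 0 Ca2+ medium, at -4.52 and -4.28. The lowest gene of standard medium was ipi-1 (NCU09094), of a complex that helps remove a spacer from the large subunit RNA, at 31.5, 28.9 and 28.4 FPKM with DMSO and at 4.91, 1.85 and 30.7 FPKM with the drug. Nucleolar protein 16 (NCU09528) was at 37.6, 34.4 and 52.7 FPKM and at 7.23, 2.01 and 50.6 FPKM. Both genes were near their DMSO level in 20 mM CaCl2 medium, at log2 ratios of 0.10 and -0.06. The genes of Ssf2 (NCU04503), Noc2 (NCU02066), spb1 (NCU03669), nucleolar GTP-binding protein 1 (NCU05289), BRX1 (NCU01524) and Mak11 (NCU07864) had 0 Ca2+ ratios from -4.50 (Mak11) to -4.06 (BRX1). RLP24 (NCU05235), Rsa4 (NCU00794) and Rrp8 (NCU05293) followed at -3.78, -3.20 and -3.02. In 20 mM CaCl2 medium nucleolar GTP-binding protein 1 was the highest of the large subunit genes, at 0.91, with 70.7 FPKM with DMSO and 134 with the drug.

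The large subunit genes nearest to 0 in 0 Ca2+ medium were Sqt1 and nsa-2. Sqt1 (NCU02477), which in yeast escorts a ribosomal protein of the large subunit, was at 75.1, 54.2 and 60.1 FPKM with DMSO and at 19.5, 12.1 and 55.5 FPKM with staurosporine. Nsa-2 (NCU00981), an abundant factor of the large subunit precursor, was at 129, 113 and 120.2 FPKM and at 52.0, 18.0 and 118 FPKM. In 20 mM CaCl2 medium both were close to their DMSO level, at -0.11 and -0.02, while in 0 Ca2+ medium they were at -2.08 and -2.59.

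Among the 11 genes that were assigned no step here, 4 are called only ribosome biogenesis protein, and 3 of these lay at an end of a drug comparison. NCU09521 was at 58.8, 54.1 and 45.2 FPKM with DMSO and at 10.3, 0.856 and 57.3 FPKM with staurosporine. Its log2 ratio of -4.89 in 0 Ca2+ medium was the lowest of the set, with -2.41 in standard and 0.34 in 20 mM CaCl2 medium. NCU08595 was at 82.6, 76.4 and 69.9 FPKM and at 17.2, 1.77 and 84.7 FPKM, and its 0 Ca2+ ratio was -4.80. NCU08121 was at 64.1, 51.1 and 39.9 FPKM and at 20.0, 2.25 and 106 FPKM. In 20 mM CaCl2 medium its ratio was 1.39, but its DMSO library there was the lowest of the 3 for this gene. The fourth, NCU04348, was at -3.68 in 0 Ca2+ medium. Nucleolar protein 12 (NCU09131), nucleolar protein 4 (NCU06217) and the rRNA maturation protein gene NCU07393 were at -4.37, -4.05 and -3.89 there. NCU03907, a pre-rRNA processing protein gene, was at -2.87, and NCU04166 at -2.02. The latter carries the same product name as NCU02546, which was placed with the large subunit genes, so the roles do not follow the product text alone.

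The 4 genes annotated as a small nucleolar ribonucleoprotein complex had median ratios of -1.46 in standard medium, -3.71 in 0 Ca2+ and 0.49 in 20 mM CaCl2. Of these, NCU01502, NCU03018 and NCU01367 lay between -3.99 and -3.68 in 0 Ca2+ medium. NCU07058 was at 10.2, 13.1 and 11.0 FPKM with DMSO and at 6.62, 0.182 and 21.5 FPKM with the drug. That 0.182 FPKM was the lowest level of any of the genes in any library. The nucleolar RNAse III gene (NCU01762), whose yeast counterpart cuts the precursor, was at 10.6, 9.94 and 10.4 FPKM and at 4.11, 3.16 and 10.6 FPKM. NCU00308, of the NOL1/NOP2/Sun family of RNA methyltransferases, was at 8.43, 5.93 and 6.93 FPKM and at 3.31, 0.584 and 6.44 FPKM. In 0 Ca2+ medium these 2 genes were at -1.39 and -2.13, values that the added 1 FPKM draws toward 0 at such levels.

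The genes that were lowest in 0 Ca2+ medium tended to be those highest in 20 mM CaCl2 medium. Across the 51 genes Pearson's r between these drug ratios was -0.490 and Spearman's rho -0.481, where all 7415 genes had -0.068 and -0.102. Standard and 0 Ca2+ ratios went together across the same genes (r 0.492, rho 0.540), as they did across all genes (r 0.543, rho 0.484). Genes are not independent replicates, so these are descriptions, each over single libraries with their own DMSO control.

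**Figure D3:**
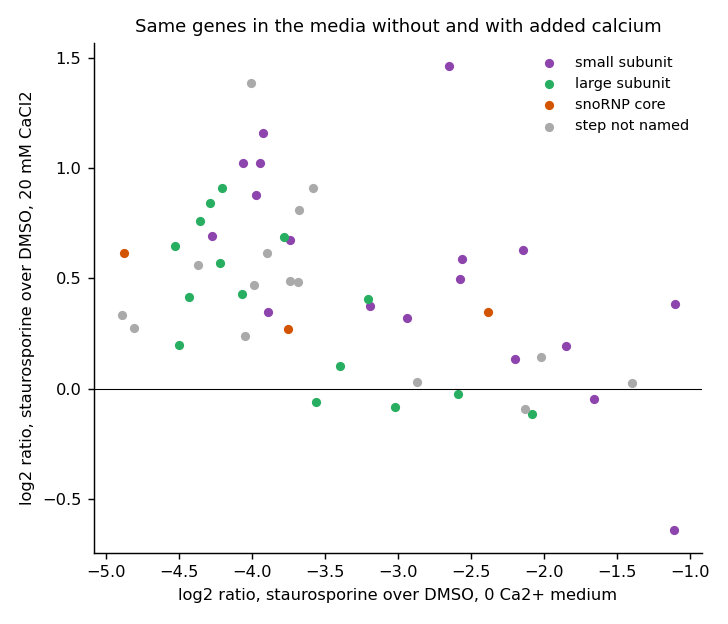
Drug ratio in 20 mM CaCl2 medium against that in 0 Ca2+ medium, both log2 of staurosporine over DMSO (FPKM + 1), 1 point for each of the 51 genes, coloured by role. Points run from upper left to lower right (r = -0.490), with NCU02428 alone at the lower right at -1.10 and -0.64.

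Gene length went with the ratios in these same media. Lengths were taken from the RefSeq gene table of assembly NC12, in which all 51 genes were found. The 17 shortest genes (1264 to 1824 bases) had a median ratio of -2.87 in 0 Ca2+ and 0.32 in 20 mM CaCl2 medium, and the 17 longest (2629 to 6027 bases) had -3.97 and 0.81. In standard medium the medians were -1.44 and -1.47. Pearson's r with log2 length was -0.400 in 0 Ca2+ and 0.447 in 20 mM CaCl2 medium across the 51 genes, and -0.210 and 0.265 across 7068 genes. After the trend of all genes with length was removed, an alternative added after the data were seen, the set's median was -1.57 in standard medium, -3.55 in 0 Ca2+ and 0.68 in 20 mM CaCl2.

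**Figure D4:**
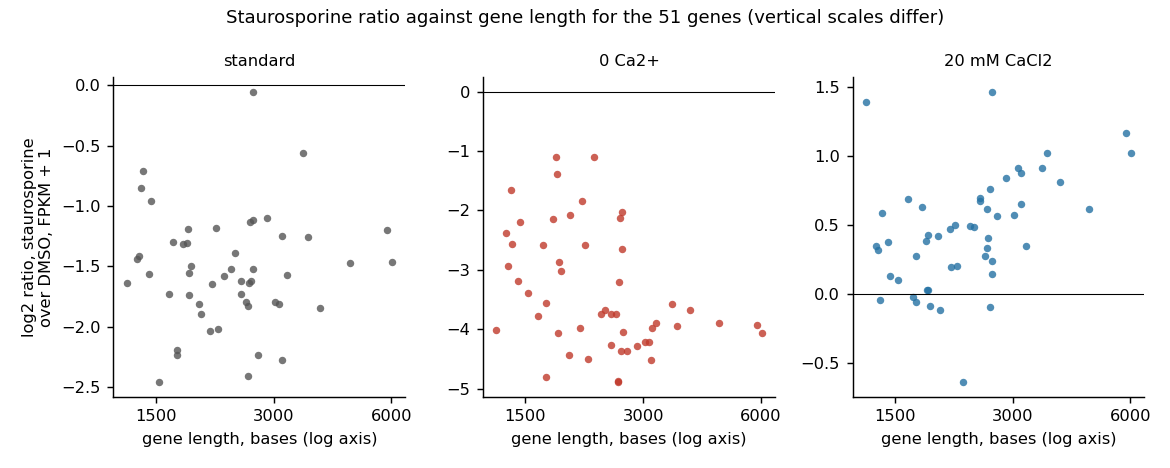
Drug ratio (log2 of staurosporine over DMSO, FPKM + 1) against gene length (log axis, bases) for the 51 genes in each medium; the vertical scales differ. Longer genes lie lower in 0 Ca2+ medium (r = -0.400) and higher in 20 mM CaCl2 medium (r = 0.447), and in standard medium r is 0.040.

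Other genes of ribosome production that the product rule leaves out had medians in the same order of media, apart from the ribosomal proteins. Lower by at least 2 times were 6 of 12 RNA polymerase I or III genes in standard, 10 in 0 Ca2+ and 0 in 20 mM CaCl2 medium, with medians of -1.12, -1.80 and 0.28, beside 14.9, 20.9 and 6.16% of all genes. With equal sums 0, 9 and 0 were lower and 6 were higher in 20 mM CaCl2 medium, with medians of -0.26, -1.44 and 0.86. RPA1 (NCU01638), the largest subunit of RNA polymerase I, was at 28.5, 34.8 and 29.5 FPKM with DMSO and at 8.67, 1.30 and 57.4 FPKM with staurosporine. Its 0 Ca2+ ratio of -3.96 was the lowest of the 12 genes. The highest was -0.31, for the RNA polymerase III gene NCU00570. Of 22 exosome genes and further named factors 16, 17 and 0 were at least 2 times lower, and 0, 0 and 1 higher, with medians of -1.48, -2.38 and 0.28. With equal sums 6, 16 and 0 were lower and 2, 0 and 8 higher, with medians of -0.63, -2.12 and 0.85. Pescadillo (NCU00925), a large subunit factor, was at 125, 89.8 and 92.4 FPKM and at 24.6, 2.30 and 109 FPKM. Its 0 Ca2+ ratio of -4.78 was the lowest of the 22 genes. The highest was 0.10, for the exosome gene Rrp4 (NCU04009). The text pattern for this list also took in 3 genes of other functions, among them the DNA methyltransferase gene NCU02247 at -0.77 in 0 Ca2+ medium. Both rRNA helicase genes set aside by the rule, spb-4 (NCU03380) and rrp-3 (NCU04504), lay near the set's median, at -3.80 and -3.75 in 0 Ca2+ medium.

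Ribosomal protein genes had another pattern. Of 104 such genes, chosen without products that name mitochondria, 14 have names with 30S, 37S, 50S or 54S. Names of this type are bacterial or mitochondrial, so the 104 may not all belong to the cytosolic ribosome. At least 2 times lower were 97 in standard (all genes: 14.9%), 38 in 0 Ca2+ (20.9%) and 24 in 20 mM CaCl2 medium (6.16%). The medians were -2.07, -0.80 and -0.78. With equal sums 67 (all genes: 366 of 7167), 20 (1040 of 7531) and 5 (124 of 7204) were lower, with medians of -1.16, -0.35 and -0.19. Between the staurosporine libraries of 0 Ca2+ and standard medium their median log2 ratio was 1.24, with 63 higher and 3 lower by at least 2 times (35 and 8 with equal sums), while that of the 51 biogenesis genes was -2.26. With equal sums these medians were 0.76 and -2.84. The 2 lists thus lay on opposite sides in a single pair of libraries under either scaling. The difference was not tested.

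**Figure D5:**
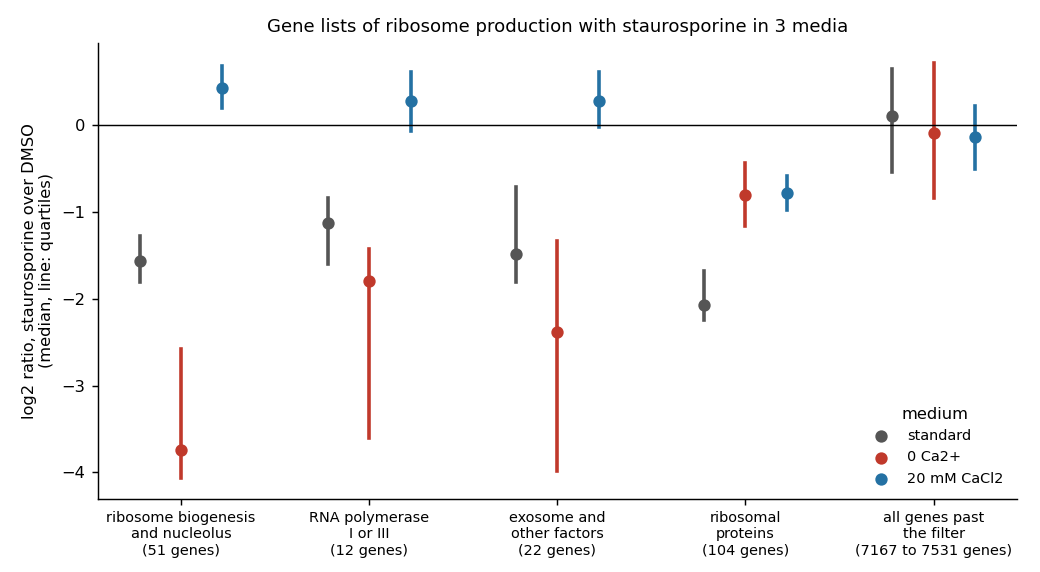
Median (point) and quartiles (line) of the drug ratio, log2 of staurosporine over DMSO (FPKM + 1), for the 51 ribosome biogenesis genes, 3 other lists of ribosome production and all genes past the filter, in standard (grey), 0 Ca2+ (red) and 20 mM CaCl2 (blue) medium. The biogenesis genes are at -1.57, -3.74 and 0.43 and the ribosomal proteins at -2.07, -0.80 and -0.78.

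On the chromosomes the genes are scattered, with a few exceptions. Of 102 neighbouring places looked at in the RefSeq table, 2 pairs joined members (NCU01502 with Tsr1, and Nop10 with NOB1) and 3 joined a member with another listed gene. The latter are NCU00336 with Noc3 (NCU00337), NCU04166 with ltv1 (NCU04165), and NCU04503 with rrp-3. Nop10 and NOB1 had 0 Ca2+ ratios of -2.38 and -1.10, and NCU01502 and Tsr1 of -3.99 and -3.97. The models of 7 members overlap another gene, and the strand used in counting is not given in the sources used here, so their levels may include reads of that gene: NCU01502, NCU03907, NCU04166, NCU04485, NCU07331, NCU09131 and NCU09528. Without these 7 the counts were 39 of 44 lower in standard medium, 44 of 44 lower in 0 Ca2+ medium and 5 of 44 higher in 20 mM CaCl2 medium.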

How the data were processed

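Per the labels' protocols, the libraries come from poly(A) RNA and were read from a single end, 50 bp each. The submitters' processing notes name TopHat2 (version 2.0.4), Cufflinks (version 2.0.2) and Cuffdiff, and the genome build is not given in the sources used here. Per the file headers, the 5 deposited tables hold the authors' FPKM for 2 libraries each, q values with calls, and an annotation of March 2011. A library that stands in several tables has the same values in each (0 differed), which allows comparison across tables. The tables hold no read counts and no depth, so no counting interval is given. The authors' q values rest on single libraries and serve only to cite their calls.

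Ratios are log2((FPKM + 1) ratio). A gene entered a comparison when its 2 libraries averaged 1 FPKM or more, and was counted at an absolute log2 ratio of 1 or more. The drug contrast over the 3 media alone has a test, from limma 3.58.1 (R 4.3.3): a moderated two-sided test with a mean trend on 7415 genes, Benjamini-Hochberg adjusted, called at an adjusted p below 0.05 and an absolute mean of 1 or more. It was checked on simulated data that had the same change in all 3 media. That check does not cover changes that differ between media, as they do here. SEs are the moderated ones of the test. The test's p values set the mean ratio against the spread of the ratios in the 3 media. That spread holds library noise, which may be technical, and any difference between media.

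The alternatives tried were a pseudocount of 0.1 or 5, no filter or one at 10 FPKM, ratios centred on genes of 10 FPKM or more, libraries scaled to a sum of 1000000, an unpaired fit, no minimum fold, and each medium left out. Chosen after seeing the data were a correction for the gene length trend and the removal of members whose model overlaps a neighbour. The members and lists were chosen with earlier results of these data known.

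Genes named are the 3 highest and 3 lowest members of each drug comparison, the 2 at each end of each DMSO comparison, the 5 with the highest mean FPKM, the 3 with the lowest limma p, and those whose product names nop, fibrillarin or U3. Other members named within a counted group, as neighbours or as overlapping models, and the examples from other lists, were picked after their values were seen. Promoter motifs and sequences were not analysed here. Software was Python 3.11.15, numpy 2.4.6, pandas 2.3.3, matplotlib 3.10.9 and scipy 1.17.1.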

Additional observations from a re-analysis of the deposited data

Results flagged for a closer look

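The median drug ratio of the 51 genes lay on opposite sides of 0 in different media: in 20 mM CaCl2 medium it was 4.17 log2 units above that in 0 Ca2+ medium and 1.995 above that in standard medium. With 1 library a group, neither difference was tested. The size of the first depends on the pseudocount. With 0.1 the medians were -4.45 in 0 Ca2+ and 0.44 in 20 mM CaCl2 medium. With 5 they were -2.33 and 0.40. Gene by gene, the 20 mM CaCl2 ratio was above the 0 Ca2+ ratio by 0.47 to 5.49.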

How the results depend on the processing

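Of the values recomputed for the counts and the test, 115 stayed within 1.5 times of the value reported and 8 did not. The 115 include the many counts that were 0 and remained 0. By limma's test 0 of 51 genes passed over the 3 media, and from 0 to 39 when a medium was left out; the 39 came without the 20 mM CaCl2 pair. Genes at least 2 times lower in standard medium were 46, and 10 with equal FPKM sums. Of all 7167 genes 1071 were lower by that factor, and 366 with equal sums. Genes at least 2 times higher in 20 mM CaCl2 medium were 5, but 2 with a pseudocount of 5. Centred ratios gave 11 and equal sums 26. Removal of the gene length trend, which was added after the data were seen, gave 3. Of all 7204 genes 189 were higher by that factor, and 925 with equal sums. At least 2 times lower in the 0 Ca2+ than in the standard staurosporine library were 45 of 51, or 88.2% (all genes: 17.9%). Only 19 of the 51 passed the filter at 10 FPKM, and 14 of these 19, or 73.7%, were lower by that factor. The share of all genes under that filter is not given here. In 20 mM CaCl2 medium with staurosporine 33 lay above the DMSO range (all genes: 26.8%), and 50 with equal sums, for which the share of all genes was not computed. Apart from where scaling or a filter itself sets the shift, the cause was not tested. The medians of the 51 genes kept their sign, with 35 values close to the one reported and 19 that moved. In 0 Ca2+ medium the median drug ratio of -3.74 became -4.45 with a pseudocount of 0.1 and -2.33 with 5. For single genes 641 values stayed and 199 moved. By limma's test 15 mean ratios over the media passed a threshold not passed before, all without the 20 mM CaCl2 pair. Counted as changing sign were 3 values, all of them mean ratios over the media. That of NCU00501 (-0.41) was 0.15 with equal sums and ran from -1.35 to 0.71 with a medium left out (0.71 without the 0 Ca2+ pair). That of NCU07058 (-1.08) ran from -2.07 to 0.17 (0.17 without the 0 Ca2+ pair). Ratios within 1 medium were counted as changing sign only where the absolute value reported was at least 1. Smaller ones that crossed 0 are thus not among the 3, such as FCF2 in standard medium, from -0.71 to 0.18 with equal sums. No paired analysis was possible because each group has 1 library, beyond the pairing of drug and DMSO libraries within a medium that the test over the media already uses; its unpaired alternative also gave 0. FPKM hold no depth, so the error of the lowest levels, such as the 15 under 1 FPKM, is unknown.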
